A study of Solanum lycopersicum with 21 samples.

Results

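Auxin signalling and auxin transport were read through 25 probe sets of the tomato leaf arrays, out of 67795 on the array. They are all the probe sets whose gene symbol is IAA, ARF or PIN followed by a number, with 7 Aux/IAA, 9 ARF and 9 PIN symbols. LAX and SAUR symbols were searched for in the same way and gave 0 probe sets each. Genes of these and the other families may still be on the array, since 44431 probe sets have no symbol. Of the 25 symbols, 22 are current RefSeq symbols and 3 are older names, since RefSeq now lists IAA6 as IAA27, IAA10 as IAA17 and ARF13 as ARF24. The tables used here give no protein descriptions, so the family of each gene was taken from its symbol.

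Auxin acts by removing repressors. Aux/IAA proteins bind ARF transcription factors and keep their target genes silent, and auxin joins Aux/IAA proteins to the TIR1/AFB receptors, which mark them for degradation. ARF proteins then activate or repress genes that carry auxin response elements, many Aux/IAA genes among them. PIN proteins are auxin carriers. Many of them, though not all, move auxin out of cells, and the position of these in the membrane gives auxin flow its direction. In leaves these genes shape blade growth, veins and leaf form, and auxin and salicylic acid are known to oppose each other in several plant defense responses.

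The leaves came from plants of cv. Rio Grande taken 24 h after treatment, with RNA pooled from 10 plants on each array and 3 arrays in each of 7 groups. In experiment 1, plants received the hybrid peptide BP178 at 125 µM, salicylic acid (SA) at 2.5 mM, jasmonic acid (JA) at 2.5 mM or ethylene (ET) released from ethephon at 1 mM. Beside them were controls (NTC_e1), which the paper calls non-treated and the labels call mock-sprayed. The methods state that control plants received distilled water. In experiment 2, plants received flg15, a fragment of bacterial flagellin, at 125 µM, beside controls of their own (NTC_e2). No genotype other than the cultivar is given, and the labels speak of spraying only. According to the methods, ethylene was given in a closed chamber, for which no matching control is described, so ethylene and enclosure cannot be told apart.

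Values are log2 intensities after RMA normalization, and a change is the mean of the treated arrays minus the mean of the NTC arrays of the same experiment. A change passed the test at a Benjamini-Hochberg adjusted p below 0.05 in limma over all probe sets. It was called when it also reached a fold change (FC) of at least 2, or at most 0.5. The treatments of experiment 1 were all compared with the same 3 NTC_e1 arrays. In bulk leaf RNA, fewer cells of a type and less RNA per cell cannot be told apart.

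Of 14 leaf markers sought by symbol or synonym, 3 were found, and all were bright (RBCS-1, RBCS-2A and CAB4, with mean log2 levels of 11.5, 9.04 and 12.4). A marker not found may still be on the array, since 44431 probe sets have no symbol. The log2 of the summed linear intensities of these leaf markers was 13.16 to 13.23 in NTC_e1 and 13.15 to 13.26 after ethylene. It was 12.81 to 13.06 after JA and 12.71 to 12.85 after SA. After BP178 it was 13.13 to 13.15, just below the NTC_e1 range. It was 13.14 to 13.33 in NTC_e2 and 13.10 to 13.27 after flg15. Of the single leaf markers, CAB4 fell after SA (-0.60, adjusted p = 0.000855), whereas RBCS-1 (-0.13, adjusted p = 0.695) and RBCS-2A (-0.12, adjusted p = 0.828) did not pass, and after JA, BP178, ethylene and flg15 0 of the 3 passed. The part of the leaf marker level in the results was not tested. Of 14 markers of fruit, flower, pollen and dividing cells, 6 were found, and 0 of them passed the test in any treatment.

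Among the auxin genes, 10 lay above the median of their array on every array. Another 6 lay below it on every array (IAA32, ARF14, PIN2, PIN6, PIN8 and PIN10). The remaining 9 lay above it on some arrays only. Probes differ in brightness, so a higher value at 1 probe set than at another is not read as more of its transcript.

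Salicylic acid moved the most members. It lowered 4 of 25 to an FC of 0.5 or less (IAA7, IAA9, ARF4 and PIN4) and raised 0 to an FC of 2 or more, whereas over the whole array 2.12% of probe sets were called lowered and 2.26% raised. Without the FC limit 10 of 25 passed, 2 higher and 8 lower, beside 4.44% higher, 5.64% lower and 10.1% in either direction of all probe sets and 24.6% in either direction of the probe sets with 1 symbol. The median change of the 25 members was -0.21, and that of all probe sets was 0.01. JA called 1 member raised (PIN3) and 1 lowered (ARF4), against 1.64% and 1.70% of all probe sets, and 6 members passed, against 8.48% of all and 20.1% of those with 1 symbol. Ethylene called 1 raised (IAA3) and 1 lowered (ARF4), against 1.18% and 0.667%, and 4 members passed, against 4.58% and 10.9%. BP178 called 0 members raised and 0 lowered, against 0.124% and 0.0133% of all probe sets, and flg15 also 0 and 0, against 0.218% and 0.0384%. The called shares were not computed for the probe sets with 1 symbol, which passed more often than all probe sets.

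**Figure D1:**
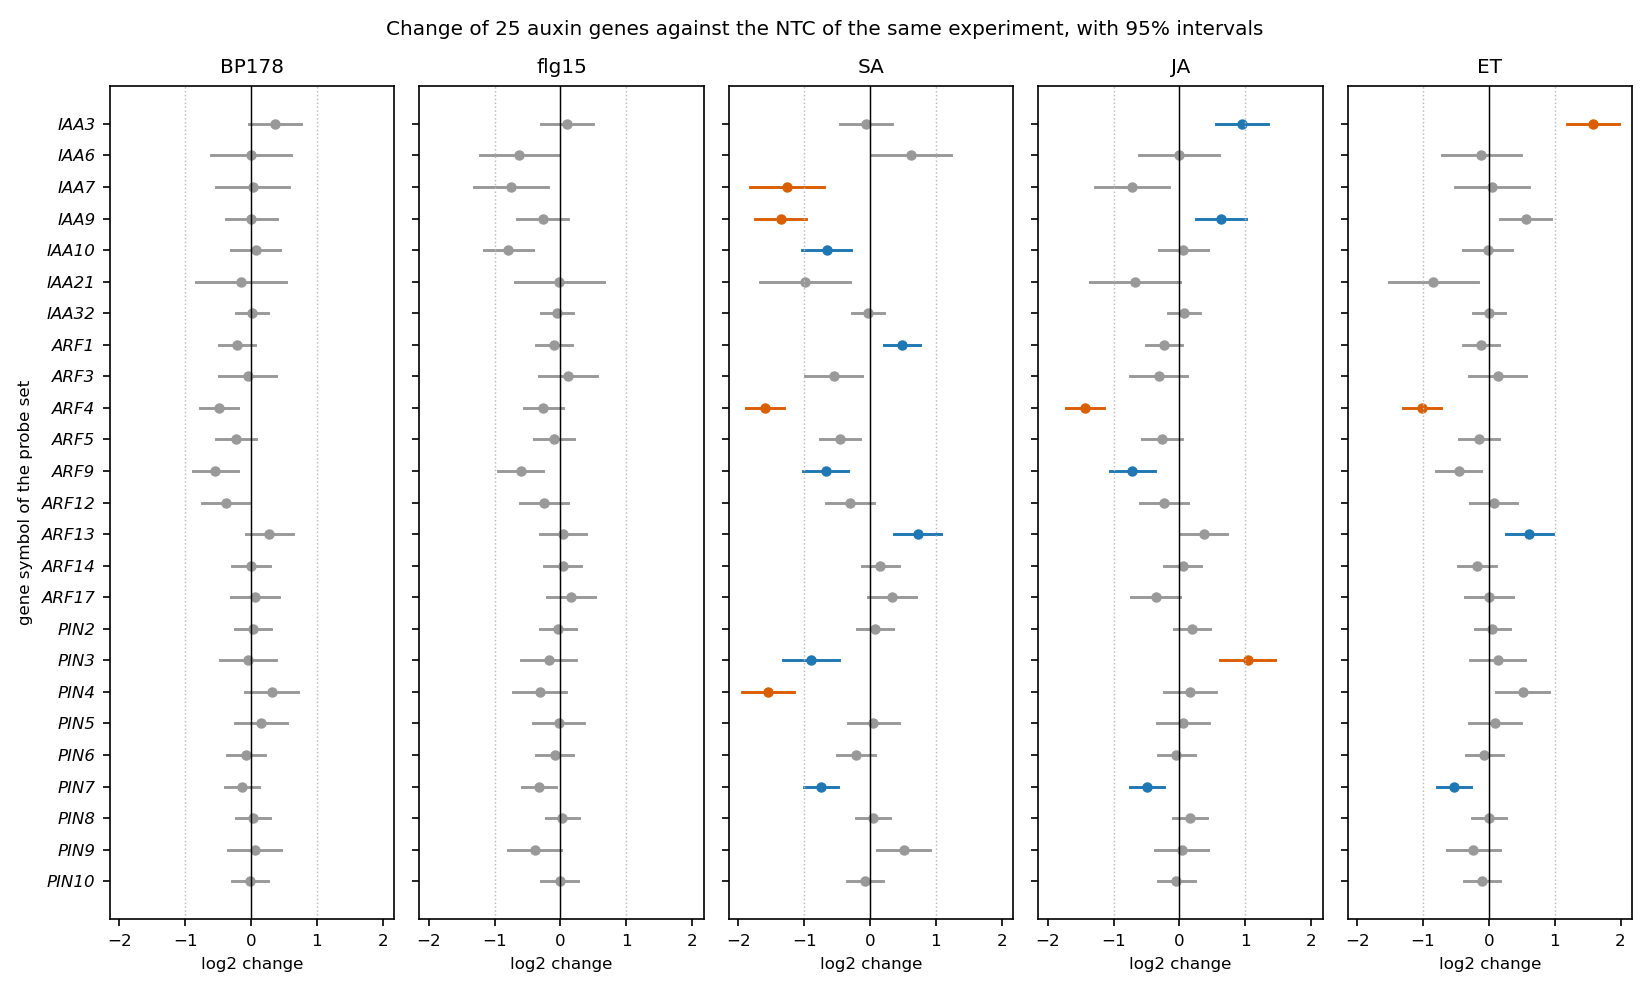
Log2 change against the NTC of the same experiment (horizontal axis) of the 25 auxin genes (vertical axis) in the 5 treatments, 3 arrays per group. Points are changes and bars 95% intervals from limma, with orange for called, blue for passed without the FC limit and grey for not passed, and dotted lines mark a log2 change of 1 in either direction; the 4 members called lowered after SA, at -1.25 to -1.59, lie beyond the left line.

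Among the Aux/IAA repressors, IAA9 and IAA7 fell after SA, and IAA3 rose after ethylene and JA. IAA9, known in tomato as ENTIRE because its loss turns the compound leaf into a simple one, stood at 9.63, 10.13 and 10.03 on the NTC_e1 arrays and at 8.44, 8.59 and 8.70 on the SA arrays. All SA arrays lay below all NTC_e1 arrays. The log2 change was -1.35 (SE 0.18, adjusted p = 2.35e-05, limma), which is 2.56-fold lower. A separate probe set, ctd1, carries a symbol that RefSeq lists as a synonym of IAA9. Its change after SA was -0.08 and did not pass (adjusted p = 0.894, limma). The fall is therefore that of the IAA9 probe set, and whether both read the same gene was not tested. After JA the IAA9 arrays read 10.57, 10.61 and 10.51, above NTC_e1 by 0.63 (SE 0.18, adjusted p = 0.0366). That JA increase missed the threshold when NTC_e1 replicate 1 or 3 or any JA array was left out (adjusted p up to 0.196). The JA arrays also lay close to the NTC_e2 arrays, which stood at 10.12, 10.51 and 10.57. After ethylene the IAA9 arrays stood at 10.39, 10.62 and 10.47, a change of 0.56 that did not pass (adjusted p = 0.103), but did with experiment 1 fitted alone (adjusted p = 0.0348) or without flg15 replicate 1 (adjusted p = 0.0318).

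IAA7 stood at 4.36, 4.55 and 4.40 in NTC_e1 and at 2.82, 3.09 and 3.64 after SA. The groups did not overlap, and the SA arrays spread more widely than the NTC_e1 arrays. Its change after SA was -1.25 (SE 0.27, adjusted p = 0.00289), or 2.38-fold lower. The lowest SA array lay within the range of the array medians, 2.63 to 2.85. Dim signal therefore limits how the size of the fall can be read. After JA IAA7 read 3.32, 3.82 and 4.02, also below all NTC_e1 arrays, but the change of -0.72 did not pass (adjusted p = 0.131). After ethylene it read 4.88, 4.59 and 3.98, a range that included all NTC_e1 values.

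IAA3, known in tomato for differential growth such as the apical hook of seedlings, stood at 5.47, 4.90 and 5.49 in NTC_e1. After ethylene the arrays read 7.06, 6.87 and 6.67, and after JA 6.03, 6.34 and 6.33. Both hormone groups lay above all NTC_e1 arrays, with the ethylene arrays above the JA arrays. The change was 1.58 after ethylene (SE 0.19, adjusted p = 1.52e-05), with an interval from 1.19 to 1.98. After JA it was 0.95 (SE 0.19, adjusted p = 0.00194), or 1.93-fold, just under the FC limit, and it crossed that limit when NTC_e1 replicate 1, NTC_e1 replicate 3 or JA replicate 1 was left out (1.04, 1.05 and 1.05). After SA IAA3 read 5.19, 5.16 and 5.34, inside the NTC_e1 range.

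No other Aux/IAA member was called with all arrays, and of them only IAA10 passed against NTC, after SA. IAA10 fell after SA by 0.66 (SE 0.18, adjusted p = 0.0185), from 3.12, 3.08 and 3.17 in NTC_e1 to 2.52, 2.66 and 2.22, and missed the threshold without NTC_e1 replicate 1, NTC_e1 replicate 3 or SA replicate 3 (adjusted p up to 0.118). These SA values lay within or below the range of the array medians, 2.63 to 2.85, so the size of this fall is also limited by dim signal. IAA21 was uneven already in NTC_e1, at 2.80, 4.53 and 3.32, and its SA change of -0.98 had an SE of 0.33 and did not pass (adjusted p = 0.0665). Without NTC_e1 replicate 1 IAA21 was called lowered after both SA (-1.36, adjusted p = 0.00791) and ethylene (-1.22, adjusted p = 0.0409). Replicate 1 held the lowest of the NTC_e1 values, so that fit kept the highest, 4.53. Leaving out any other single array did not let IAA21 pass after SA or ethylene. IAA6 was higher after SA by 0.63, with overlapping arrays (adjusted p = 0.258). IAA32 stayed below the array median on all 21 arrays.

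Among the ARF transcription factors, ARF4 fell after each of SA, JA and ethylene. ARF4, known in tomato fruit for restraining chlorophyll and starch accumulation, stood at 6.59, 7.02 and 6.83 in NTC_e1 and at 6.76, 6.83 and 6.88 in NTC_e2. It read 5.22, 5.46 and 4.98 after SA, 5.43, 5.48 and 5.22 after JA, and 5.61, 5.92 and 5.87 after ethylene. No array of these hormone groups reached any NTC array of either experiment. The change was -1.59 after SA (SE 0.14, adjusted p = 6.78e-08), or 3.02-fold lower. It was -1.44 after JA (SE 0.14, adjusted p = 5.27e-07), or 2.71-fold lower. It was -1.01 after ethylene (SE 0.14, adjusted p = 8.74e-05), or 2.02-fold lower, and there the change went above -1 without NTC_e1 replicate 2 (-0.91) or without ET replicate 1 (-0.92). The ARF4 arrays after BP178 stood at 6.35, 6.41 and 6.20, also below all NTC_e1 arrays, with a change of -0.49 that did not pass (adjusted p = 0.266).

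**Figure D2:**
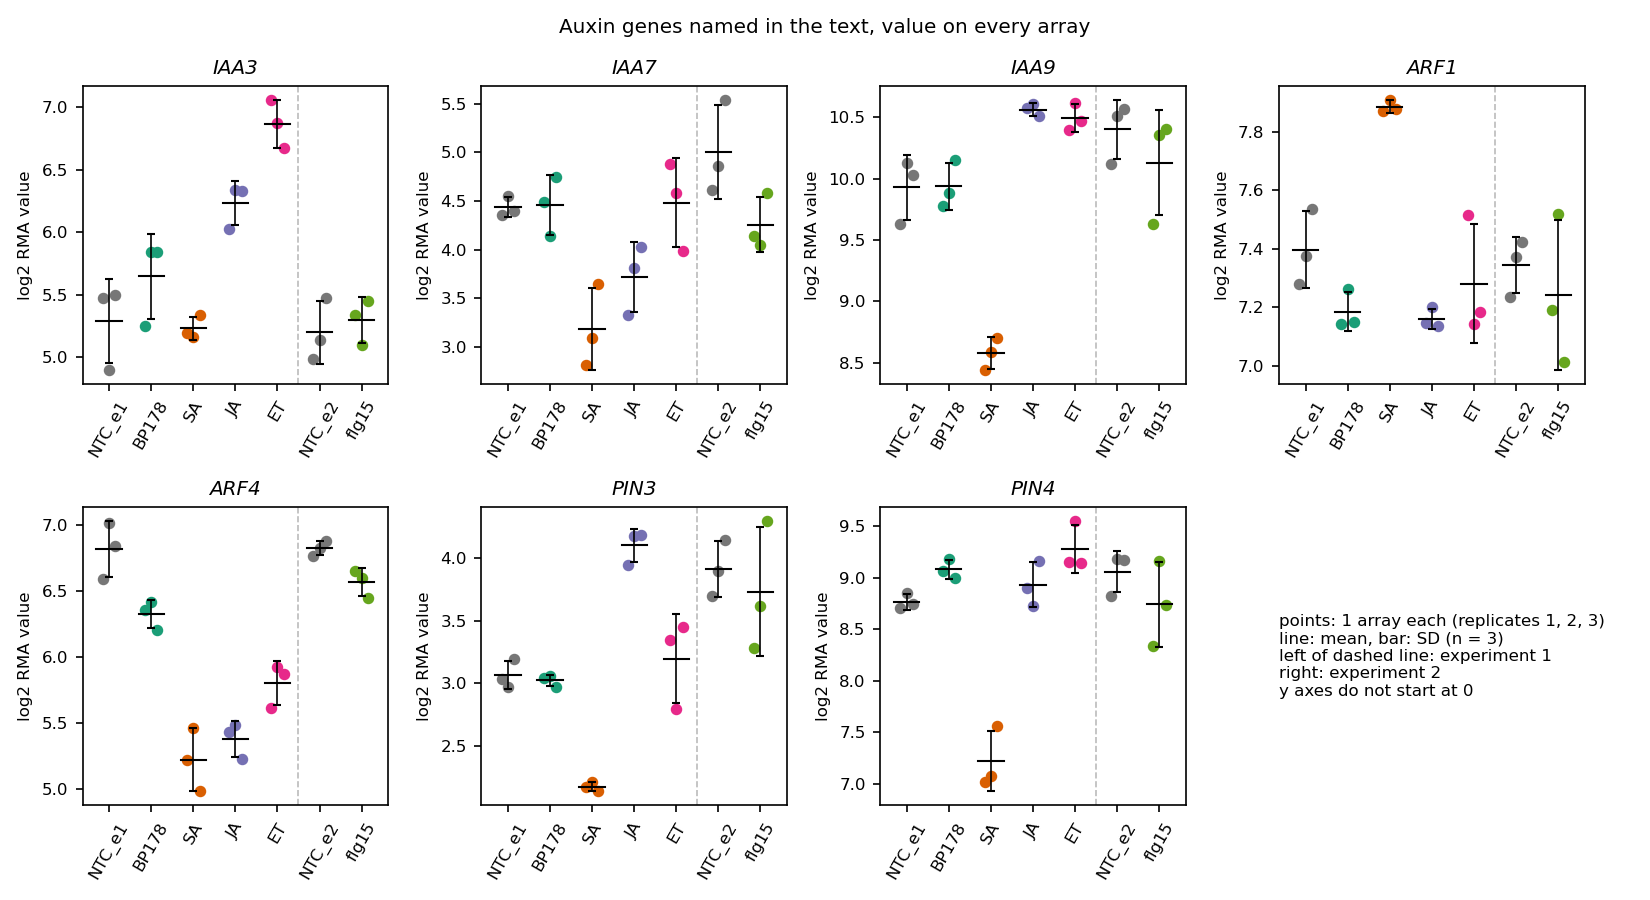
Log2 intensity (vertical axis) of IAA3, IAA7, IAA9, ARF1, ARF4, PIN3 and PIN4 on each array, by group (horizontal axis), with 3 arrays per group as points and the group mean as a line. ARF4 lies at 4.98 to 5.92 in the SA, JA and ET groups and at 6.59 to 7.02 in the NTC groups.

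ARF9, which in tomato is known to limit cell division in young fruit, fell after SA and after JA. It stood at 4.59, 4.43 and 4.22 in NTC_e1, at 3.81, 3.60 and 3.80 after SA and at 3.41, 3.94 and 3.75 after JA. The changes were -0.67 (SE 0.16, adjusted p = 0.00767) and -0.71 (SE 0.16, adjusted p = 0.00604), with no overlap of arrays and under the FC limit. After BP178 ARF9 had the lowest change of all members, -0.54, which did not pass.

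ARF13 and ARF1 moved the other way. ARF13 rose after SA by 0.73 (SE 0.17, adjusted p = 0.0062), from 3.70, 4.04 and 4.04 in NTC_e1 to 4.51, 4.67 and 4.78. It was higher by 0.61 after ethylene (adjusted p = 0.0434), and this passed with all arrays but missed the threshold in 15 of the 21 fits that left out an array, those without any 1 of the NTC or JA or ET arrays included (adjusted p up to 0.217), and under quantile normalization (0.0506), with experiment 1 fitted alone (0.0610) and with the trended robust prior (0.0863). ARF1 rose after SA by 0.49 (SE 0.13, adjusted p = 0.0167), with 7.87, 7.91 and 7.88 on the SA arrays against 7.28, 7.38 and 7.54 in NTC_e1. It missed the threshold without NTC_e1 replicate 1, NTC_e1 replicate 2 or SA replicate 2 (adjusted p up to 0.0847). The remaining ARF members (ARF3, ARF5, ARF12, ARF14 and ARF17) did not pass in any treatment with all arrays. Leaving out an array let ARF3 pass after SA (SA replicate 1 or flg15 replicate 2, adjusted p = 0.0338 and 0.0396) and ARF5 pass after SA (NTC_e2 replicate 1, SA replicate 2, flg15 replicate 1 or flg15 replicate 2, adjusted p from 0.0434 to 0.0476). ARF5 is the counterpart of the Arabidopsis activator MONOPTEROS, which is needed for vein and embryo patterning.

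Among the PIN carriers, PIN4 fell after SA and PIN3 moved in opposite directions after SA and JA. PIN4, whose silencing in tomato alters plant architecture, stood at 8.70, 8.85 and 8.75 in NTC_e1 and at 7.02, 7.08 and 7.56 after SA. The SA arrays lay below every other PIN4 array of the series. The change was -1.55 (SE 0.19, adjusted p = 6.57e-06), or 2.92-fold lower. After ethylene PIN4 read 9.15, 9.55 and 9.14, above all NTC_e1 arrays, with a change of 0.51 that did not pass (adjusted p = 0.170), and after JA the arrays overlapped those of NTC_e1.

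PIN3, whose Arabidopsis counterpart redistributes auxin sideways in bending organs, stood at 3.03, 2.97 and 3.19 in NTC_e1. It read 2.17, 2.21 and 2.14 after SA and 3.95, 4.18 and 4.18 after JA, with no overlap in either case. The SA values lay below the array medians of 2.63 to 2.85, so dim signal limits how the size of the fall can be read. The change was -0.89 after SA (SE 0.20, adjusted p = 0.00448) and 1.04 after JA (SE 0.20, adjusted p = 0.00155), or 2.05-fold higher. The JA value sat at the FC limit, since it was 0.99 without NTC_e1 replicate 2, 0.998 without JA replicate 2 and 0.99 without JA replicate 3, and PIN3 was then no longer called. The NTC_e2 arrays stood at 3.70, 3.90 and 4.14, all above the NTC_e1 arrays, with 1 of the 3 (4.14) within the range of the JA arrays. After ethylene PIN3 read 3.35, 2.79 and 3.45, which overlapped NTC_e1.

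PIN7 fell in all hormone groups and was never called, since each change was under the FC limit. It stood at 2.92, 2.76 and 2.79 in NTC_e1, close to the array medians of 2.63 to 2.85. The arrays read 2.12, 2.17 and 1.93 after SA, 2.27, 2.42 and 2.30 after JA, and 2.31, 2.21 and 2.36 after ethylene, all below NTC_e1. All these hormone arrays also lay below the array medians, so dim signal limits how the size of the falls can be read. The changes were -0.75 (adjusted p = 0.000205), -0.49 (adjusted p = 0.0125) and -0.53 (adjusted p = 0.0126). The JA change missed the threshold without NTC_e1 replicate 1, JA replicate 1 or JA replicate 3 (adjusted p up to 0.0632), and the ethylene change without NTC_e1 replicate 1 or ET replicate 2 (adjusted p up to 0.0706). The remaining PIN members (PIN2, PIN5, PIN6, PIN8, PIN9 and PIN10) did not pass against NTC. The symbol PIN2 is also in use for a proteinase inhibitor, and the tables used here do not settle which gene the PIN2 probe set reads.

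Whether the hormones differed from each other was tested directly, as the difference between treated groups without an FC limit. SA and JA differed for 7 of 25 members, against 8.37% of all probe sets. SA and ethylene differed for 10, against 11.8%, and JA and ethylene for 2, against 7.53%. All 25 members have a gene symbol, and the shares among probe sets with 1 symbol were not computed for differences between groups. For changes against NTC, probe sets with 1 symbol passed more often than all probe sets. The widest differences between SA and JA were at IAA9 (-1.99, SE 0.18, adjusted p = 1.59e-07), PIN3 (-1.93, SE 0.20, adjusted p = 8.04e-07) and PIN4 (-1.71, SE 0.19, adjusted p = 1.85e-06), all lower after SA. Against ethylene, SA was lower at PIN4 by 2.06 on the log2 scale (SE 0.19, adjusted p = 1.42e-07), at IAA9 by 1.92 and at IAA3 by 1.64. ARF4 was lower after SA than after ethylene by 0.58 (SE 0.14, adjusted p = 0.00707), which missed the threshold without SA replicate 3 (adjusted p = 0.0555). At ARF4 the difference between SA and JA did not pass, at -0.16 (adjusted p = 0.681) and a 95% interval from -0.45 to 0.13.

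**Figure D3:**
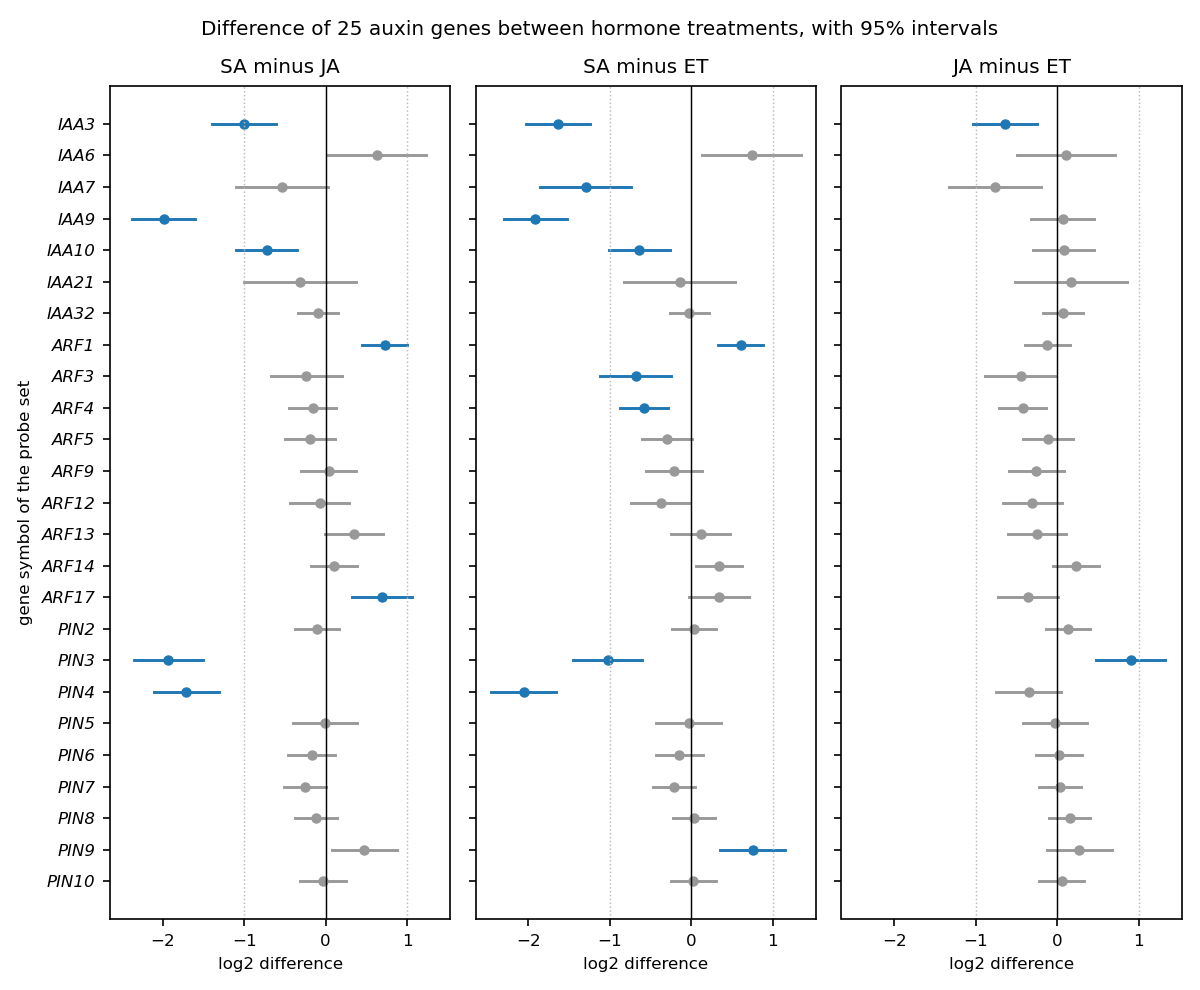
Log2 difference between hormone groups (horizontal axis) for the 25 auxin genes (vertical axis), as SA minus JA, SA minus ET and JA minus ET, with 3 arrays per group. Points are differences and bars 95% intervals from limma, blue where the adjusted p is below 0.05 and grey otherwise; IAA9, PIN3 and PIN4 lie left of 0 in both comparisons with SA.

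JA and ethylene differed at IAA3 (-0.64, SE 0.19, adjusted p = 0.0432), where ethylene was higher, and at PIN3 (0.90, SE 0.20, adjusted p = 0.00642), where JA was higher. The IAA3 difference missed the threshold in 9 of the 21 fits that left out an array (adjusted p up to 0.189). The PIN3 difference missed it without ET replicate 2 (adjusted p = 0.0571).

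With all arrays, 0 auxin genes passed the test after either peptide. After BP178 the 25 changes ran from -0.54 (ARF9) to 0.36 (IAA3), and all 25 intervals lay within a log2 change of 1 in either direction. The intervals reached -0.88 at ARF9 and 0.75 at IAA3. After flg15 the changes ran from -0.80 (IAA10) to 0.16 (ARF17), and 22 of 25 intervals lay within those bounds, with IAA6, IAA7 and IAA10 outside and IAA7 reaching -1.31. The smallest adjusted p was 0.266 for BP178 (ARF4) and 0.0522 for flg15 (IAA10). IAA10 read 3.44, 3.43 and 3.78 after flg15, below the NTC_e2 arrays at 4.09, 4.62 and 4.32 without overlap. Its change of -0.80 (SE 0.18) passed after quantile normalization (adjusted p = 0.0346) and when NTC_e2 replicate 1 (adjusted p = 0.0420), JA replicate 1 (0.0231) or JA replicate 3 (0.0456) was left out. The median change was -0.10 after flg15, beside 0.02 for all probe sets. At an unadjusted p under 0.05 there were 3 members after BP178 (ARF4, ARF9 and ARF12) and 5 after flg15 (IAA6, IAA7, IAA10, ARF9 and PIN7), against 7.27% and 11.5% of all probe sets. Of all probe sets 0.204% passed after BP178 and 0.465% after flg15, and of those with 1 symbol 0.405% and 0.992%. The response to BP178 minus that to flg15 passed for 0 members, against 0.0870% of all probe sets, with 2 (IAA10 and PIN4) at an unadjusted p under 0.05, against 9.30%.

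The control groups of the experiments themselves differed for 3 members, against 4.83% of all probe sets. NTC_e1 was lower than NTC_e2 at IAA10 by 1.22 on the log2 scale (SE 0.18, adjusted p = 0.000207), at PIN9 by 0.86 (SE 0.19, adjusted p = 0.0103) and at PIN3 by 0.85 (SE 0.20, adjusted p = 0.0157). IAA10 stood at 3.12, 3.08 and 3.17 in NTC_e1 and at 4.09, 4.62 and 4.32 in NTC_e2, with no overlap. PIN9 stood at 2.61, 2.77 and 3.03 against 3.70, 3.61 and 3.67. The PIN9 difference missed the threshold without NTC_e1 replicate 1 (adjusted p = 0.0665), and the PIN3 difference without NTC_e1 replicate 1, NTC_e1 replicate 2, NTC_e2 replicate 2 or NTC_e2 replicate 3 (adjusted p up to 0.0933).

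Of the other auxin genes sought by symbol or synonym, 2 were found, and more may be on the array without a symbol. MDR1, which RefSeq also calls SlABCB4, belongs to the ABCB transporters, a second class of auxin carriers in Arabidopsis. It rose after JA by 1.19 (SE 0.22, adjusted p = 0.000866), from a mean of 5.68 in NTC_e1 to 6.88, and its mean in NTC_e2 was 6.64. Its changes in the other treatments ran from -0.34 to 0.21 and did not pass. FZY, a flavin monooxygenase gene of auxin synthesis, stayed between 1.72 and 2.18 on all arrays and did not pass in any treatment.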

How the data were processed

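Leaf RNA of 21 arrays (7 groups of 3) was measured on the GeneChip Tomato Gene array. The authors background-corrected, normalized and summarized the probes with RMA (Expression Console; the sources used here give no version), and the deposited values are log2 intensities from 0.956 to 13.85. Precision is limited by the number of arrays, which hold no counts. The sources used here name no genome build for the annotation, so coordinates and sequences are left out.

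limma 3.58.1 (R 4.3.3) was run on all 67795 probe sets, with a mean for each group over all 21 arrays, a constant empirical Bayes prior and two-sided tests. The p values were adjusted by Benjamini-Hochberg over all probe sets. The controls of a treatment were the NTC arrays of the same experiment. Replicates are labelled as biological, and each is RNA pooled from 10 plants. The tests set a difference of means against the spread between arrays within groups, estimated for each probe set over all 7 groups together and moderated by the prior. The spread between single plants was not measured. Intervals are 95% from limma's moderated standard errors.

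Symbols came from the array's probe-to-gene table (1 symbol for 23194 probe sets, several for 170, none for 44431), and synonyms from RefSeq. The naming rule took members called in any treatment, the probe set with the highest mean value of each family (IAA9, ARF1 and PIN4), a rank of brightness that served for naming only, and called genes of a list of other auxin genes. Members that only passed the test, differed between treatments or did not pass were named in addition, after their values were seen. Promoter and protein searches that had been planned were not run, since no sequence table was used here. The members and gene lists were chosen with earlier results of these data known. Alternatives were quantile normalization, a trended robust prior, dropping the 25% dimmest probe sets, each experiment fitted alone, no minimum FC, a replicate block and each array left out in turn.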

Additional observations from a re-analysis of the deposited data

Results flagged for a closer look

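The responses to the hormones differed from each other by a direct limma test (adjusted p below 0.05 over all probe sets) in 19 cases over 11 members, and these differences drew attention because they separate treatments compared with the same controls. Between SA and JA, the log2 difference (SA minus JA) was -1.003 at IAA3, -1.99 at IAA9, -0.72 at IAA10, 0.73 at ARF1, 0.70 at ARF17, -1.93 at PIN3 and -1.71 at PIN4. Only ARF1 and ARF17 among these 7 were higher after SA.

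Between SA and ethylene, the log2 difference (SA minus ET) was -1.64 at IAA3, -1.30 at IAA7, -1.92 at IAA9, -0.64 at IAA10, 0.61 at ARF1, -0.68 at ARF3, -0.58 at ARF4, -1.03 at PIN3, -2.06 at PIN4 and 0.75 at PIN9. ARF1 and PIN9 were higher after SA, and the other 8 were lower. Between JA and ethylene, the log2 difference (JA minus ET) was -0.64 at IAA3 and 0.90 at PIN3. ARF3, ARF17 and PIN9 did not pass against NTC in any treatment, so for them the difference passed where neither change did.

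Of these 19 differences, 11 stayed past the threshold whichever array was left out. The other 8 missed it without certain arrays. Between SA and JA these were IAA10 (without SA replicate 3, JA replicate 2 or JA replicate 3) and ARF17 (without SA replicate 2, SA replicate 3 or JA replicate 2). Between SA and ethylene they were IAA10 (without SA replicate 3 or ET replicate 3), ARF3 (without SA replicate 2 or 3 or ET replicate 2 or 3), ARF4 (without SA replicate 3) and PIN9 (without ET replicate 1 or 3). Between JA and ethylene they were PIN3 (without ET replicate 2) and IAA3 (9 arrays, all 3 of SA and all 3 of JA among them). Under quantile normalization ARF3 (adjusted p = 0.101) and PIN9 (0.0536) between SA and ethylene and IAA3 between JA and ethylene (0.0901) also missed it. The IAA3 difference missed it as well with each experiment fitted alone (0.0534) and with the replicate block (0.0523). Groups of 3 arrays were not tested for single outlying arrays.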

How the results depend on the processing

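Quantile normalization, a trended robust prior, dropping the 25% dimmest probe sets, fitting each experiment alone and the replicate block left the number of called members unchanged in all treatments. No change or difference of a member that passed turned its direction under any alternative. The alternatives were read for the 25 members only, so MDR1, FZY, ctd1 and the marker genes are given with the reported settings alone. Without a minimum FC, SA had 2 members raised and 8 lowered, JA 3 and 3, and ethylene 2 and 2. Members differing between JA and ethylene numbered 2, and 1 under quantile normalization, with each experiment fitted alone and with the replicate block. Changes that passed the test under an alternative but not with the settings reported were IAA10 after flg15 (quantile normalization, adjusted p = 0.0346), IAA21 after SA (the filter on dim probe sets, the trended robust prior and the replicate block, 0.0408 to 0.0492), ARF5 after SA (0.0466) and IAA9 after ethylene (0.0348) with each experiment alone, and PIN9 after SA (0.0486) and IAA9 after ethylene (0.0168) with the replicate block. The change of ARF13 after ethylene missed the threshold under quantile normalization (0.0506), with each experiment alone (0.0610) and with the trended robust prior (0.0863), and the differences of ARF3 (0.101) and PIN9 (0.0536) between SA and ethylene and of IAA3 between JA and ethylene (0.0901) missed it under quantile normalization. The causes were not tested.

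With each array left out in turn, members lowered after SA numbered 4 to 5, raised after JA 0 to 2, lowered after JA 1 to 1, raised after ethylene 1 to 1 and lowered after ethylene 0 to 2. Members differing numbered 5 to 7 between SA and JA, 7 to 11 between SA and ethylene, 0 to 3 between JA and ethylene (0 without ET replicate 2) and 1 to 3 between the control groups (1 without NTC_e1 replicate 1). BP178 and flg15 stayed at 0. IAA7, IAA9, ARF4 and PIN4 after SA, ARF4 after JA and IAA3 after ethylene stayed called whichever array was left out, and 14 of the 20 changes that passed still passed.

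The labels do not say that replicate numbers pair the arrays, and the numbers were not used as pairs. The rule asked that every same-numbered pair correlate above 0.1 in its deviations from group means, which was not met. Since 1 pair that falls short is enough to fail it, this rule cannot decide whether the numbers pair the arrays. In experiment 1 the correlation of same-numbered pairs ran from -0.281 to 0.189 (median 0.0795, 10 of 30 pairs above 0.1). Pairs of different numbers had a median of -0.0447, with 11 of 60 above 0.1. In experiment 2 the correlation of same-numbered pairs ran from -0.0189 to 0.0625. Of 21 arrays, 10 correlated best with their own number. With the replicate block, members called numbered 0 for BP178 and flg15, 4 for SA, 2 for JA and 2 for ethylene, as without it, and members differing between NTC_e1 and NTC_e2 numbered 5 in place of 3. The differences between BP178 and flg15 and between the control groups cannot be given with each experiment fitted alone. Members near the array median are limited by their dim signal.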

Other observations

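The array holds a separate probe set with the symbol ctd1, which RefSeq lists as a synonym of IAA9. It stood between 8.05 and 8.72 on all arrays. Its log2 change was -0.08 after SA (limma adjusted p = 0.894), where that of the IAA9 probe set was -1.35, and 0.09 after JA and 0.21 after ethylene. Whether both probe sets read the same gene was not tested.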
